A study of Homo sapiens with 4 samples.

Results

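The 10 genes described here encode the IL6 receptor and what lies below it in plasma cells: IL6R, IL6ST, JAK1, JAK2, TYK2, STAT3, SOCS1, SOCS3, PIM1 and PIM2. They were taken by symbol from the 62069 genes counted in each library, and all 10 were found and tested. The RNA came from KMS11, a human line of myeloma, a plasma cell cancer, and the series' title names the translocation t(4;14) in this disease. That translocation puts NSD2, which encodes a histone methyltransferase, under immunoglobulin control. All 4 libraries came from cells infected with lentivirus in the presence of polybrene (10 µg/mL). The cells were collected 96 h after infection and 72 h after a change of medium. In 2 libraries the genotype is labelled Control and in 2 it is labelled NSD2 Knockdown, with shM2 in the sample titles. Everything comes from 1 cell line. Whether the 2 libraries of a group are separate cultures is not in the labels, and the p-values reflect no more than the spread among these 4 libraries, part of which may be technical.

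IL6 binds its receptor chain, the product of IL6R, and the pair then engages gp130, the signalling chain encoded by IL6ST. JAK1, JAK2 and TYK2 are tyrosine kinases that sit on gp130 and phosphorylate STAT3, a transcription factor that enters the nucleus. SOCS1 and SOCS3 encode inhibitors that are induced by STATs and shut the kinases down, and PIM1 and PIM2 encode serine/threonine kinases of cell survival whose genes are among those that STATs switch on. In bone marrow, IL6 from stromal and myeloid cells is a survival factor for plasma cells and for many myelomas.

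The promoters of 3 members are shown, chosen by the results below: PIM1 rose, IL6R fell, and PIM2 was the most abundant member. No link between these sequences and a level or a change was tested. Each runs 5′ to 3′ on the strand of the gene, from 250 bases before the RefSeq start site to 50 bases from it on, in build GRCh38.p14. PIM1 lies at chr6:37169902-37170201 (plus strand), PIM2 at chrX:48918975-48919274 (minus strand) and IL6R at chr1:154405093-154405392 (plus strand). Capitals mark the octamer ATGCAAAT, bound by POU factors, and the GC box GGGCGG, bound by SP factors, each on either strand.
PIM1: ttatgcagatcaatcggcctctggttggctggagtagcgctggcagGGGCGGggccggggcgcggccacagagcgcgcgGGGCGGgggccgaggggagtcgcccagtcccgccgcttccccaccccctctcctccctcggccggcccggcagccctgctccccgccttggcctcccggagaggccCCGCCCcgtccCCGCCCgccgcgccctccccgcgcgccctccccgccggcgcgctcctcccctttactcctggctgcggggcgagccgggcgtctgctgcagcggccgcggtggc
PIM2: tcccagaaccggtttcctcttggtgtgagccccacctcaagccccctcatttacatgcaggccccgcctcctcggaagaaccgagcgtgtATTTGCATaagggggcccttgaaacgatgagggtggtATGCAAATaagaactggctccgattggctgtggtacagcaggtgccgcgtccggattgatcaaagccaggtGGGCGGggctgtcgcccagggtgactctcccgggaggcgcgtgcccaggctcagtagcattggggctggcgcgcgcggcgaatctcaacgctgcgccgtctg
IL6R: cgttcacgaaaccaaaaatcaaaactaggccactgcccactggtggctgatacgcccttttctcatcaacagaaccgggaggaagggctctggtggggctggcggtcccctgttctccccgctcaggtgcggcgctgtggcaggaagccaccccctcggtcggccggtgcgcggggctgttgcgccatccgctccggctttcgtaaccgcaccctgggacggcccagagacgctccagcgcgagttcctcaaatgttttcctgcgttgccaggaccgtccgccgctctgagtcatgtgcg

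The PIM2 promoter held 2 octamers, starting 160 and 123 bases before the start site on opposite strands, and 1 GC box. An octamer was present in 1.77% of the 35116 RefSeq promoters of this length, and 2 or more in 0.0399%. The PIM1 promoter held 4 GC boxes and no octamer, where 9.06% of promoters held 4 or more GC boxes, and its GC content was 79.7% against 62.3% for PIM2. The IL6R promoter held neither motif. A GC box was in 7 of the 16 promoters listed for the 10 genes, beside 45% of all promoters. The IL6ST promoter held 4 and 1 JAK1 promoter held 6, and neither gene passed the test of change below. The octamer and the GC box were chosen after the sequences had been read. The palindrome TTCNNNGAA, the core of many STAT sites, was in 0 of the 16 promoters listed for the 10 genes and in 7.66% of all promoters. A match is only a description of these letters, and their absence says only that this window does not hold them.

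NSD2, the gene named in the knockdown label, had 1121 CPM in control library 1, 1471 CPM in control library 2, and 919 and 1156 CPM in knockdown libraries 1 and 2. CPM are counts scaled to a common library total, on TMM-scaled libraries. The 2 groups overlapped and NSD2 did not pass the test (log2 fold change -0.32, adjusted p = 0.244), and the name knockdown below is the label's. Number by number, which the labels do not pair, the log2 ratio of knockdown to control library was -0.29 for library 1 and -0.35 for library 2. Leaving out control library 2 gave a log2 fold change of -0.12 and leaving out knockdown library 1 gave -0.16. It was -0.50 when control library 1 or knockdown library 2 was left out, both past the threshold. Libraries held 46728940 to 55059566 fragments. All 10 plasma cell markers checked were detected, with summed levels of 8957 and 8986 CPM in control and 8232 and 9074 CPM in knockdown libraries, of which JCHAIN alone gave 5031 to 5575 CPM. CD27 stayed below 1 CPM. Of the 10, 2 fell by edgeR (20%, beside 4.19% of all genes). SLAMF7, a surface receptor of plasma cells, had 237 and 272 CPM in control and 109.7 and 129 CPM in knockdown libraries (log2 fold change -1.09, adjusted p = 0.000952). CD38, a surface enzyme, had 78 and 33 fragments in control and 14 and 2 in knockdown libraries (log2 fold change -2.82, adjusted p = 0.0284). The part of these 2 falls in the results below was not tested. Summed levels were 1.70 to 2.82 CPM for 10 monocyte and macrophage markers, with 2 at 0 throughout, and 4.84 to 6.47 CPM for 9 T and NK cell markers, also with 2 at 0. The 10 stromal markers summed to 282 and 535 CPM in control and 183 and 320 CPM in knockdown libraries. FN1 alone gave 280 and 532 CPM, then 181 and 318 CPM, while 7 of the 10 stayed below 1 CPM, LUM among them at 0. The part of FN1 in any result was not tested, and in bulk RNA a smaller share of cells and less RNA per cell cannot be told apart. Over all genes, 299 rose and 719 fell. Leaving out single libraries gave 173 to 682 rises and 649 to 1342 falls, lowest without knockdown library 2 and highest without control library 1. With terms for GC content and exonic length, added after the data were seen, 649 rose and 625 fell, and the share of falls among calls went from 70.6% to 49.1%.

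In control cells the members were expressed at uneven levels, with PIM2 far above the rest. Levels were compared between genes as TPM, which divides counts by the exonic length of each gene. PIM2 stood at 2325 and 2198 TPM in control libraries 1 and 2, rank 38 among the 17172 genes tested, and 14.8 times above PIM1, the next member, by the means. PIM1 followed at 153 ± 16.0 TPM (SD, n = 2), IL6ST at 126 ± 8.13, JAK1 at 91.5 ± 7.53, TYK2 at 69.7 ± 5.37, STAT3 at 60.8 ± 8.13, IL6R at 40.7 ± 5.95 and SOCS3 at 33.3 ± 2.74 TPM. SOCS1, at 5.87 ± 1.25 TPM, and JAK2, at 4.73 ± 0.0517 TPM, were the lowest. Across the control libraries the values of neighbours in this order did not overlap, except those of TYK2 and STAT3. Across all 4 libraries, the values of IL6R and SOCS3 overlapped as well, as did those of SOCS1 and JAK2. Within each library, TYK2 was above STAT3 and SOCS1 above JAK2.

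**Figure D1:**
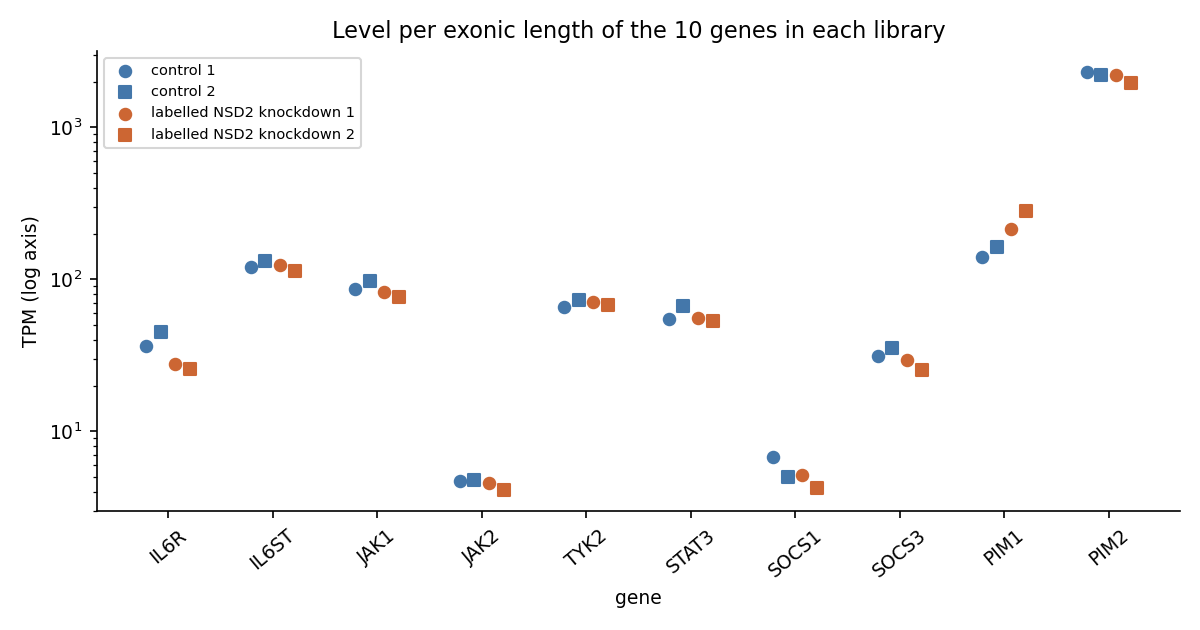
Level of each of the 10 genes (horizontal axis) in TPM on a log axis (vertical), 1 point per library, blue for control and orange for the libraries labelled NSD2 knockdown, circles for number 1 and squares for number 2. PIM2 lies between 1964 and 2325 TPM, and JAK2 and SOCS1 lie below 7 TPM.

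Transcripts of the IL6 ligand were near absent from these cells, while its receptor chains were present. IL6 had 0 and 1 fragments in the control libraries and 0 and 0 in the others, and LIF had 0 in all 4, where a count of 0 allows up to 3 fragments in a library by counting error alone. Of 10 ligands of the IL6 family, 5 were high enough to test, led by OSM at 4.90 TPM in both groups. By edgeR 0 of these 5 rose or fell, beside 5.93% of all genes. DESeq2 and limma-voom called 0 as well, beside 1092 and 1007 of all 17172 genes. An unadjusted p below 0.05 by edgeR was found for 0 of the 5, and for 3865 of all 17172 genes.

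IL6R was the member that fell. It had 3804 and 4195 fragments in control libraries 1 and 2 and 2714 and 2934 in knockdown libraries 1 and 2 (ENSG00000160712, GRCh37 chromosome 1, 154377669 to 154441926). These are 75.3 and 89.0 against 56.1 and 54.1 CPM. Both knockdown libraries lay below both controls, and they differed less from each other than the controls did. The mean went from 82.1 ± 9.70 to 55.1 ± 1.46 CPM (SD, n = 2 each), a 1.49-fold fall (log2 fold change -0.58, SE 0.11, 95% interval -0.81 to -0.34, edgeR adjusted p = 0.0125). Knockdown library 1 over control library 1 gave a log2 ratio of -0.42, and knockdown library 2 over control library 2 gave -0.72. No exonic base of IL6R is shared with another gene of the annotation, though the span holds 2 genes of the opposite strand with 101 and 2 fragments in all.

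The signalling chain IL6ST did not follow. It stood at 364 and 383 CPM in control and 366 and 353 CPM in knockdown libraries, and the groups overlapped (ENSG00000134352, chromosome 5, 55230923 to 55290821). Its log2 fold change was -0.06 with a 95% interval of -0.27 to 0.15 (adjusted p = 0.765). Per length, IL6ST exceeded IL6R 3.30-fold and 2.94-fold in the control libraries and 4.45-fold in each knockdown library. The 2 groups of ratios did not overlap, but an exact two-sided permutation test gives p = 0.333, the smallest that 2 libraries against 2 allow. Among the other chains that pair with gp130, IL27RA was the most abundant at 162 TPM in control cells (adjusted p = 0.502), IL11RA stood at 7.79 TPM and LIFR at 2.88 TPM. LIFR was at 10.5 and 11.2 CPM in control and 14.8 and 13.9 CPM in knockdown libraries and missed the threshold (log2 fold change 0.40, adjusted p = 0.0940). OSMR had at most 4 fragments in any library and CNTFR at most 1. ADAM10 and ADAM17, which encode proteases that shed the IL6 receptor from the surface, had adjusted p of 0.714 and 0.296.

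**Figure D2:**
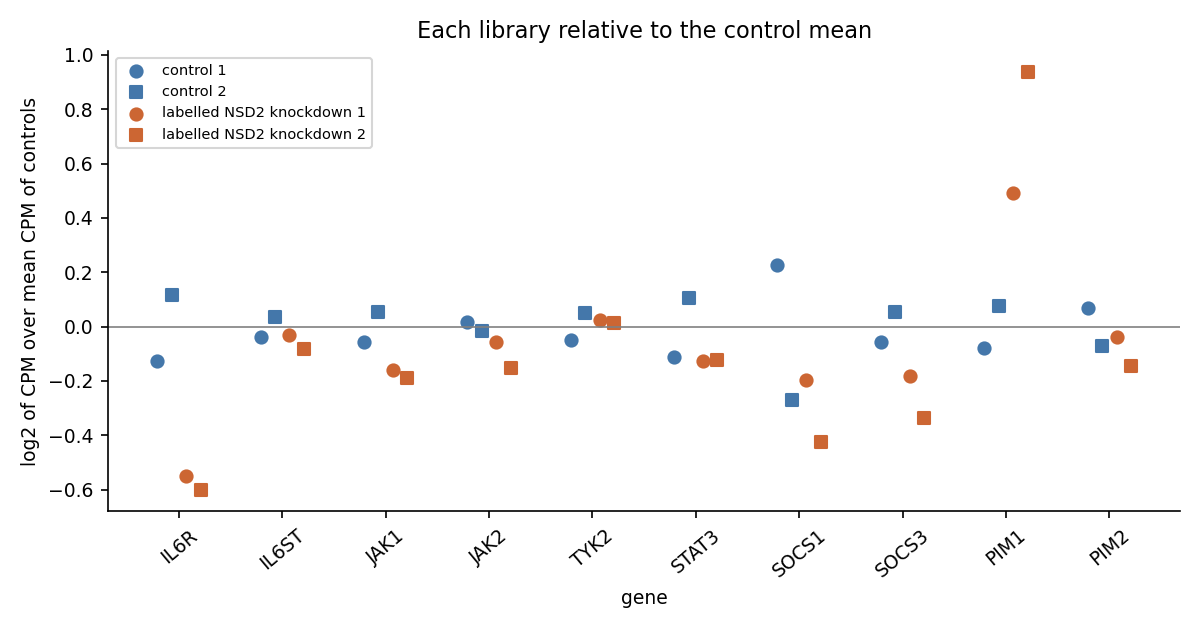
Log2 of the CPM of each library over the mean CPM of the 2 control libraries (vertical axis) for the 10 genes (horizontal axis), 1 point per library. PIM1 lies above both controls and IL6R below both in each knockdown library. IL6ST, TYK2, SOCS1 and PIM2 overlap between the groups.

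None of the 3 kinases that serve gp130 passed the test. JAK1 had 177 and 191 CPM in control and 165 and 161 CPM in knockdown libraries (ENSG00000162434, chromosome 1, 65298912 to 65432187). The knockdown libraries lay below both controls, by a log2 fold change of -0.17 (95% interval -0.38 to 0.03, adjusted p = 0.308). JAK2 was at 9.26 and 9.03 against 8.79 and 8.24 CPM (log2 fold change -0.10, 95% interval -0.40 to 0.20, adjusted p = 0.698), again with no overlap (ENSG00000096968, chromosome 9, 4985033 to 5128183). TYK2 stood at 143 and 153 CPM in control and 151 and 150 CPM in knockdown libraries, which lay between the controls (log2 fold change 0.02, 95% interval -0.19 to 0.23, ENSG00000105397, chromosome 19, 10461209 to 10491352).

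The kinase of this family that fell is one outside gp130 signalling. JAK3, which pairs with the common gamma chain of the IL2 receptor family, was at 280 and 299.96 CPM in control and 208.5 and 193 CPM in knockdown libraries (log2 fold change -0.53, SE 0.10, adjusted p = 0.0121). Both knockdown values were below both controls. JAK3 was the most abundant JAK per length in control cells, with 44.6% of the summed TPM of the 4 kinases against 37.2% in knockdown libraries. TYK2 went from 23.3% to 28.4% of that sum and JAK1 from 30.5% to 32.6%, while JAK2 held 1.58% and 1.77%.

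STAT3 was at 158 and 183 CPM in control and 156 and 157 CPM in knockdown libraries (ENSG00000168610, chromosome 17, 40465342 to 40540586). The knockdown libraries lay just below control library 1. Its log2 fold change of -0.12 had a 95% interval of -0.35 to 0.10 (adjusted p = 0.518), and it was -0.02 without control library 2. With terms for GC content and length it was 0.05.

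Elsewhere in the STAT family, STAT6 fell and STAT5A rose. STAT6, the mediator of IL4 and IL13, was at 168 and 192 CPM in control and 102 and 128 CPM in knockdown libraries (log2 fold change -0.64, SE 0.12, adjusted p = 0.0154). STAT6 shares 59 exonic bases with LRP1 and 69 with NAB2, both on the opposite strand, and fragments were counted without strand. STAT5A, a mediator of several cytokines, was scarce, at 2.49 and 1.91 CPM in control and 3.76 and 4.24 CPM in knockdown libraries (log2 fold change 0.86, adjusted p = 0.0376). Its call was lost without control library 2 and without knockdown library 2 (adjusted p up to 0.119). STAT5B, its close relative, was at 85.0 and 92.8 CPM by group mean (adjusted p = 0.445).

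**Figure D3:**
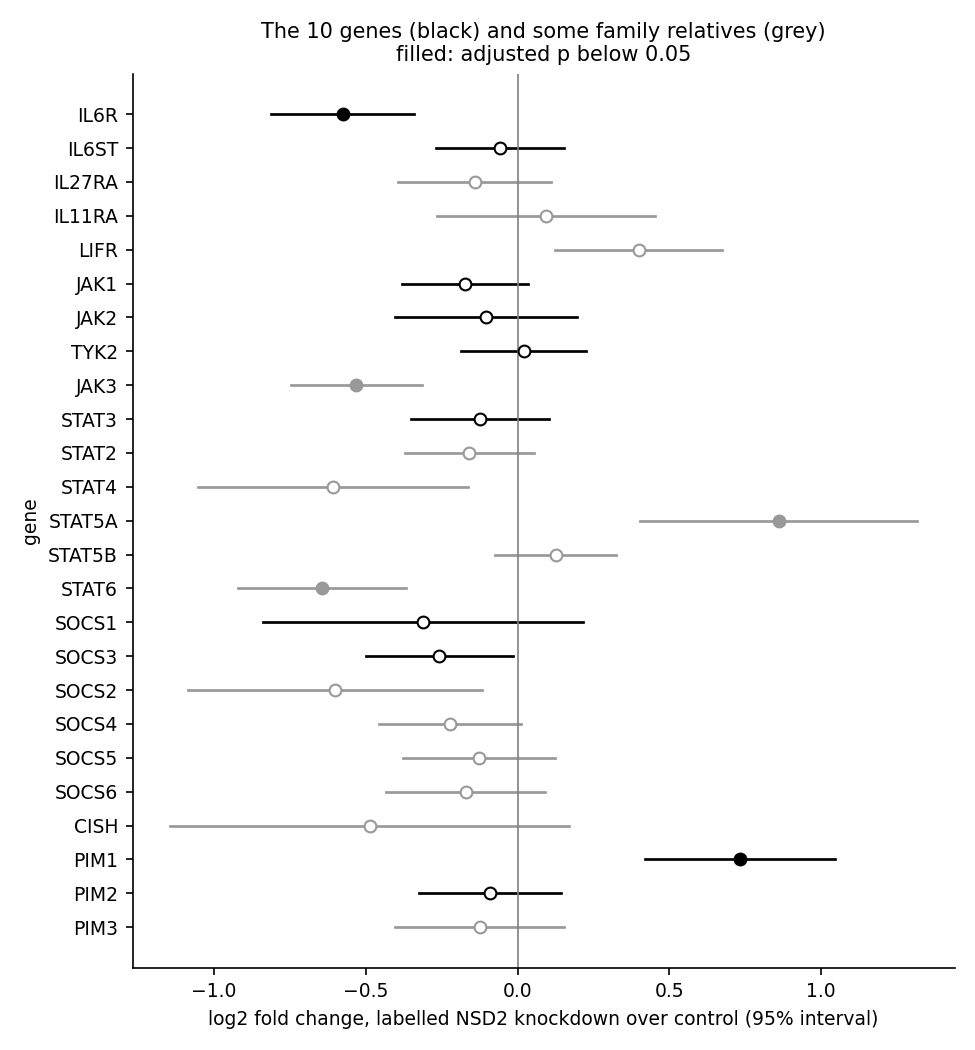
Log2 fold change (horizontal axis, points) with its 95% interval (lines) for the 10 genes in black and some of their tested family relatives in grey, ordered by role. Filled points have an adjusted p below 0.05: IL6R, JAK3, STAT6, STAT5A and PIM1.

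The inhibitors did not pass the test, and both were lower by their means. SOCS3, which binds gp130 and blocks its JAKs, was at 27.8 and 30.01 CPM in control and 25.5 and 22.9 CPM in knockdown libraries, with no overlap (ENSG00000184557, chromosome 17, 76352864 to 76356158). Its log2 fold change was -0.26 (95% interval, not adjusted for the number of genes, -0.50 to -0.01) with an adjusted p of 0.200. SOCS1 had 136 and 90 fragments in control and 97 and 93 in knockdown libraries (ENSG00000185338, chromosome 16, 11348262 to 11350036). The knockdown values lay between the controls as counts, and the CPM of the groups overlapped. Its log2 fold change was -0.31 with a wide 95% interval of -0.84 to 0.22 (adjusted p = 0.483), and -0.04 without control library 1. Of 18 brakes listed (SOCS and PIAS proteins and phosphatases), 16 were tested. By edgeR 0 rose and 0 fell, beside 1.74% and 4.19% of all genes. DESeq2 called 1 lower, beside 734 of all 17172 genes, and limma-voom 0, beside 716. At an unadjusted p below 0.05 by edgeR, 1 was higher and 4 lower, where 3865 of all 17172 genes passed in either direction. The 2 most abundant brakes, the phosphatase genes PTPN1 and PTPN6, had log2 fold changes of -0.01 each.

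PIM1 was the member that rose. It had 6912 and 7188 fragments in control libraries 1 and 2 and 9840 and 15040 in knockdown libraries 1 and 2 (ENSG00000137193, chromosome 6, 37137979 to 37143202). These are 137 and 152 against 203 and 277 CPM. Both knockdown libraries lay above both controls, and library 2 was well above library 1. The mean went from 145 ± 11.1 to 240.3 ± 52.1 CPM (SD, n = 2 each), a 1.66-fold rise (log2 fold change 0.73, SE 0.14, 95% interval 0.42 to 1.05, edgeR adjusted p = 0.0152). The log2 fold change was 0.49 without knockdown library 2 (adjusted p = 0.032) and 0.94 without knockdown library 1. Number by number, the log2 ratio of knockdown to control library was 0.57 for library 1 and 0.86 for library 2.

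PIM2 stood at 2087 and 1895 CPM in control and 1939 and 1801 CPM in knockdown libraries, which overlapped (ENSG00000102096, chromosome X, 48770459 to 48776301). Its log2 fold change was -0.09 with a 95% interval of -0.32 to 0.14 (adjusted p = 0.661). PIM3, the remaining kinase of the family, was at 149 ± 27.5 and 137 ± 4.45 CPM (SD, n = 2, adjusted p = 0.608). Of the summed TPM of the 3 PIM genes, PIM1 made up 5.28% and 6.48% in control and 8.26% and 11.6% in knockdown libraries, and PIM2 86.9% and 86.9%, then 84.9% and 81.6%. PIM2 thus exceeded PIM1 per length 16.5-fold and 13.4-fold in control and 10.3-fold and 7.01-fold in knockdown libraries. The ratios did not overlap between the groups (exact two-sided permutation p = 0.333, the smallest possible here).

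Of the 10 members, 1 rose and 1 fell, where 1.74% of all 17172 tested genes rose and 4.19% fell, 5.93% in all. In 1 member both knockdown libraries lay above both controls, against 27% of all genes, and in 5 they lay below, against 26.2%. These 6 of 10 stand beside 53.2% of all genes, so that share is near the background. The median log2 fold change of the members was -0.11, and that of all tested genes -0.0016. The calls of IL6R and PIM1 held in all 14 alternative settings, with log2 fold changes from -0.69 to -0.45 for IL6R and from 0.49 to 0.94 for PIM1. In the authors' deposited table, which comes from DESeq2, the log2 fold changes were -0.55 for IL6R and 0.74 for PIM1, but with adjusted p of 0.372 and 0.272. The standard errors in the authors' deposited table were 0.23 and 0.29. Its header names the contrast M2 vs LUC while its control columns are named shScr. DESeq2 run here on the 4 libraries gave -0.58 for IL6R and 0.73 for PIM1, near the deposited fold changes. The standard errors of that run were smaller, at 0.13 and 0.15. Why they differ from the deposited ones was not tested, and the p-values of the 2 sources are not matched. For the other 8 members the authors' deposited table gave log2 fold changes from -0.29 (SOCS1) to 0.04 (TYK2), with a lowest adjusted p of 0.9999 (SOCS3).

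**Figure D4:**
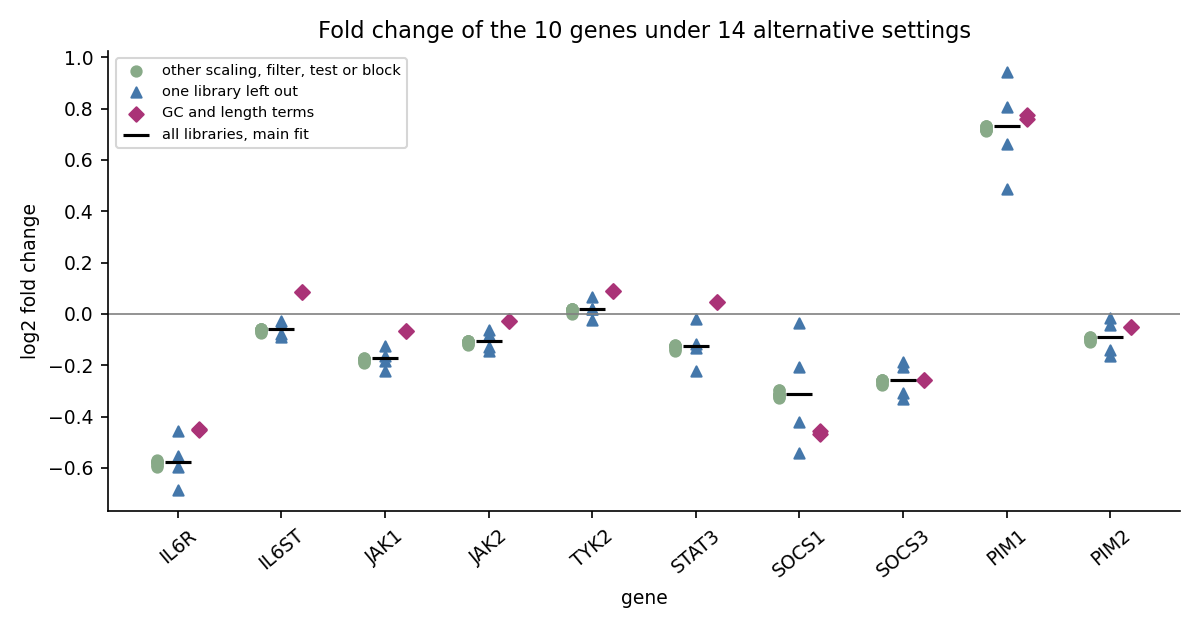
Log2 fold change (vertical axis) of the 10 genes (horizontal axis) with all libraries (black bars), with 1 library left out (triangles), with GC content and length terms (diamonds) and with other scalings, filters, tests or a block (circles). All values for PIM1 lie above 0 and all for IL6R below 0, while IL6ST, STAT3 and TYK2 take both signs.

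Around the members, 131 other genes of the pathway were listed and 111 tested. Of these, 1 rose and 9 fell, or 0.901% and 8.11%, beside 1.74% and 4.19% of all genes. The groups did not overlap in 52.3% of them, against 53.2% of all genes. Their median log2 fold change was -0.09. The lists they come from were chosen with earlier results of these data known. With GC content and length terms, 5 rose and 9 fell, beside 649 and 625 of all 17172 genes. Leaving out single libraries moved the count of rises, which was lowest without knockdown library 2, as it was over all genes.

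Of 24 tested receptors that use JAKs but not gp130, 4 fell and 0 rose by edgeR (16.7% fell, beside 4.19% of all genes). This list was chosen with earlier results of these data known. DESeq2 and limma-voom each called 3 lower and 0 higher. Over all 17172 genes, DESeq2 called 734 lower and 358 higher, and limma-voom 716 lower and 291 higher. At an unadjusted p below 0.05 by edgeR, 2 were higher and 5 lower, where 3865 of all 17172 genes passed in either direction. CSF2RB, the shared signalling chain for IL3, IL5 and GM-CSF, was at 147 and 165 CPM in control and 69.2 and 69.8 CPM in knockdown libraries. That was a 2.24-fold fall (log2 fold change -1.16, SE 0.10, adjusted p = 0.000373), and the groups lay far apart. IL3RA, the chain that binds IL3, was at 37.2 and 38.9 CPM in control and 26.6 and 25.8 CPM in knockdown libraries (log2 fold change -0.54, adjusted p = 0.0120). IL13RA1, a chain of the IL13 receptor, had 78 and 127 against 30 and 55 fragments (log2 fold change -1.36, adjusted p = 0.0437), and 5 of 14 alternatives ended its call. CRLF2, the TSLP receptor chain, named after its values were seen, had 18 and 19 against 6 and 5 fragments, and 6 of 13 alternatives ended its call. IL2RG, the common gamma chain, was the most abundant of these receptors at 1458 TPM in control cells, with a log2 fold change of -0.04 (adjusted p = 0.847).

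The genes listed as ones that STAT3 can switch on gave 1 rise and 3 falls by edgeR among 33 tested. These are 3.03% and 9.09%, beside 1.74% and 4.19% of all genes. DESeq2 called 1 rise and 5 falls, beside 358 and 734 of all 17172 genes. This list too was chosen with earlier results of these data known. By edgeR the rise was that of PIM1, and besides JAK3 the falls were those of MUC1 and FOSL2. MUC1, a membrane mucin, was at 24.7 and 30.5 CPM in control and 9.70 and 12.7 CPM in knockdown libraries (log2 fold change -1.30, adjusted p = 0.00193). MUC1 shares 47 exonic bases with KRTCAP2 on the same strand. FOSL2, an AP-1 factor, was at 3.78 and 4.50 CPM in control and 2.42 and 1.92 CPM in knockdown libraries (adjusted p = 0.0273, and 0.108 without knockdown library 2). The 2 most abundant, XBP1, a plasma cell factor of the unfolded protein response, and MCL1, a survival gene of the BCL2 family, had adjusted p of 0.209 and 0.644. The list median was -0.12.

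In the branch from gp130 through SHP2 to RAS and PI3K, 1 of 14 tested genes fell and 0 rose by edgeR, DESeq2 and limma-voom. That is 7.14%, beside falls of 4.19% of all genes by edgeR. Of all 17172 genes, DESeq2 called 734 lower and limma-voom 716. At an unadjusted p below 0.05, 0 were higher and 2 lower by edgeR, where 3865 of all 17172 genes passed in either direction. The gene called lower was the adaptor GAB2 (log2 fold change -1.26, adjusted p = 0.0203). It was at 2.39 and 3.12 CPM in control and 1.36 and 0.940 CPM in knockdown libraries. SHC1 and GRB2, the most abundant adaptors, had log2 fold changes of -0.02 and 0.02. Of 16 tested PIM kinases and PIM substrates, 1 rose and 0 fell by edgeR, DESeq2 and limma-voom. The rise was PIM1 itself (6.25% rose, beside 1.74% of all genes by edgeR). Of all 17172 genes, DESeq2 called 358 higher and limma-voom 291. At an unadjusted p below 0.05, 2 were higher and 2 lower by edgeR, which is to be read beside the same 3865 of 17172 genes. The higher ones were PIM1 and, named after its values were seen, BAD, a cell death gene (log2 fold change 0.41, adjusted p = 0.196).

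**Figure D5:**
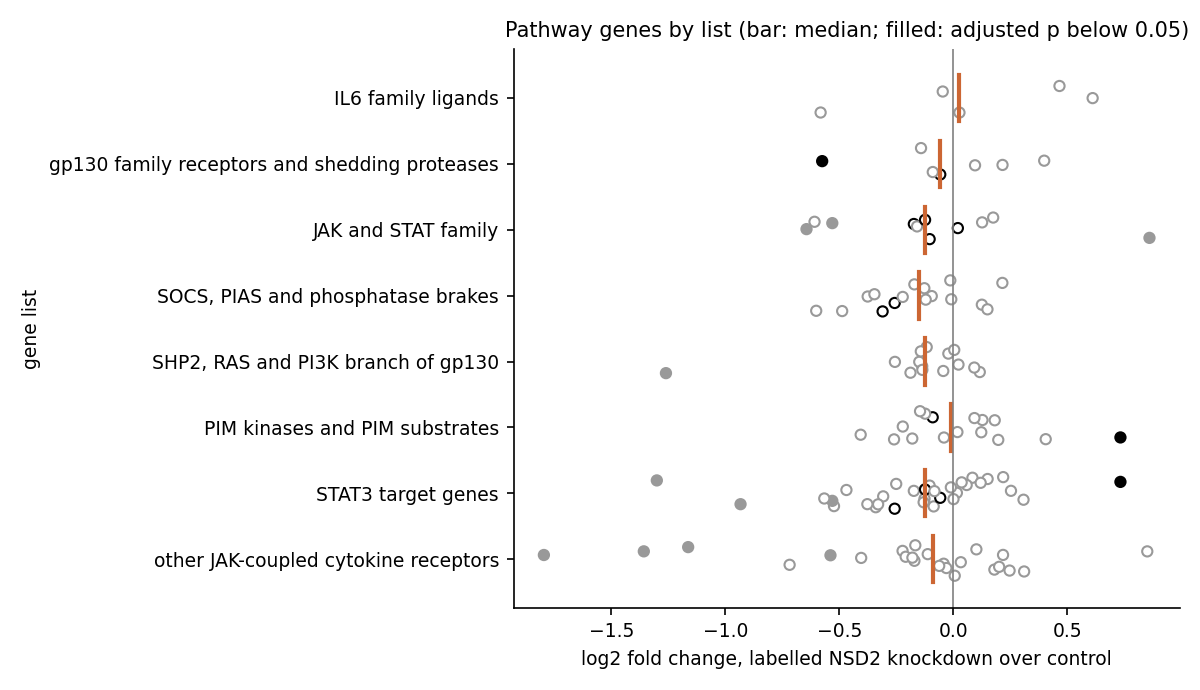
Log2 fold change (horizontal axis) of each tested gene in 8 pathway lists (vertical axis), members in black, other genes in grey, filled where the adjusted p is below 0.05, with bars at the list medians. List medians lie between -0.15 and 0.03.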

How the data were processed

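The deposited file of each library gives raw counts of fragments for 62069 Ensembl genes. Per the submitters' processing notes, reads were trimmed with Trim Galore 0.3.7 and aligned with STAR 2.5.3 to GRCh37, and featureCounts of Subread 1.4.6 was used. Per the file headers, counting ignored strand and used alignments named as duplicate-removed. The authors also deposited a DESeq2 table (header: M2 vs LUC) with log2 fold changes, their SE, p-values, a base mean (a signal: mean normalised count) and exonic lengths. Its base mean was over 10 and over 10 times the highest count here for 296 genes. The libraries in that model are not given in the sources used here. Its 4 columns of per-library values were not used, and 1 blank line per file was left out. Symbols came from this table (36551 genes).

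Groups were compared with edgeR 4.0.16 in R 4.3.3 (quasi-likelihood F test) with TMM scaling, the default low-count filter and the group as the only term, adjusted by Benjamini and Hochberg over 17172 genes (threshold 0.05). The biological coefficient of variation was 9.81%. CPM used TMM-scaled libraries and TPM the deposited exonic lengths. The scripts were tested on simulated counts. The main fit then made 157 calls, 2 of them false. It recovered 50.7% of 1.5-fold and 86.4% of 2-fold changes, so a change of such size can be missed. With a GC trend added, of a size not taken from these libraries, 4650 of its 4814 calls were false. With GC content and length terms, 8 of 157 were false.

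The 12 other settings were scaling by RLE, by upper quartile or by library size alone, 2 other low-count filters (none, or 1 CPM), DESeq2 1.42.0, limma-voom (limma 3.58.1), a replicate block and leaving out each library. GC content and length terms (mgcv 1.9.3), alone and with the block, were added after the data were seen. Promoters came from RefSeq (GRCh38.p14), and all 10 symbols matched. Named genes were the members, NSD2, up to 3 rises and 3 falls by smallest adjusted p and the 2 most abundant genes of each list, and relatives in the same families. The members and lists were chosen with earlier results of these data known.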

Additional observations from a re-analysis of the deposited data

How the results depend on the processing

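IL6R and PIM1 kept their direction and stayed past the threshold in all 14 alternatives, and JAK1, JAK2, SOCS1 and PIM2 kept theirs below it. Fits with 1 library left out take the spread of the remaining single library from the other group. With GC content and length terms, without and with the replicate block, the log2 fold change turned to 0.085 and 0.0849 for IL6ST and to 0.0465 and 0.0472 for STAT3, and NSD2 went to 0.0095 without the block. TYK2 turned to -0.025 without control library 1. The cause was not tested.

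With the replicate block the log2 fold changes were -0.57 for IL6R and 0.72 for PIM1. Nothing in the labels ties library 1 of one group to library 1 of the other. Deviations from the group mean in the libraries numbered 1 correlated at 0.236 across genes. The block moved the count of genes called from 1018 to 3319, and to 5232 with GC and length terms, while no filter gave 2148. Among the 111 tested pathway genes outside the set, it moved the higher ones from 1 to 6 and the lower ones from 9 to 20. Over all 17172 genes, 1327 were higher and 1992 lower with the block. With the block and GC and length terms, 24 pathway genes were higher and 21 lower, beside 3302 and 1930 of all genes. The members lower were then 2, with SOCS3 past the threshold (-0.26, adjusted p = 0.0131). Pathway genes higher were 5 with GC and length terms alone, beside 649 of all 17172 genes. They were 2 with no filter, beside 658 of all 31645 genes.

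NSD2 passed the threshold with no filter (-0.32) and with the block (-0.32). Leaving out single libraries gave -0.50 to -0.12 for NSD2, -0.09 to -0.03 for IL6ST, -0.22 to -0.02 for STAT3, -0.0252 to 0.0643 for TYK2, 822 to 2024 genes called and 0 to 2 pathway genes higher. Without control library 1, 2024 genes were called. SOCS1 rested on 90 to 136 fragments a library.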
